A study of Cavia porcellus with 72 samples.

Results

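Acetylcholine acts on neurons through muscarinic receptors, which couple to G proteins, and nicotinic receptors, which are ion channels built from subunits. M1 and M3 receptors act through Gq and phospholipase C and close M-type potassium channels, whereas M2 and M4 receptors act through Gi/o, which lowers cAMP and opens inwardly rectifying potassium channels. The hippocampus receives its acetylcholine mainly from neurons of the medial septum and diagonal band, and this input is known for its part in attention and memory encoding. The genes described here are 10 acetylcholine receptor genes chosen by symbol: the muscarinic receptors CHRM1, CHRM2, CHRM3 and CHRM4, the nicotinic alpha subunits CHRNA2, CHRNA4, CHRNA5, CHRNA6 and CHRNA7, and the nicotinic beta subunit CHRNB2. Of these 10 genes, 9 were in all 3 gene count tables and had enough reads to be tested, and CHRNB2, which matched no row of these tables, was not analysed here. The tables hold 11651 genes in F1, 11716 in F2 and 11663 in F3, of which 11446 are shared.

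RNA came from the hippocampus of female guinea pigs (Dunkin-Hartley, as the study's methods name them) on postnatal day 40. The sGC animals descended from F0 females given betamethasone, a synthetic glucocorticoid (sGC), during pregnancy, and the control animals (Veh) from F0 females given saline. F1 animals were exposed in the womb, and F2 and F3 were bred through males of each line with females outside the experiment, so that no F2 or F3 pregnancy was itself treated. There were 6 control and 5 sGC libraries in F1, 6 and 6 in F2, and 6 and 7 in F3, each from 1 animal, and the animals came from independent mothers. The question is whether the receptor genes differed between sGC and control lineages in each generation.

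The libraries held between 13507449 and 19767033 counted reads. Levels are given as counts per 1e+06 reads (CPM), scaled by TMM within a generation, and sGC was compared with control inside each generation by the quasi-likelihood test of edgeR, with p-values adjusted over all genes tested and a threshold of 0.05. CPM is not divided by transcript length, so levels were compared between groups for 1 gene and not between genes. Of the 10 marker genes listed for hippocampal neurons, 9 were tested and none differed between sGC and control in any generation, with summed levels of 679 to 823 CPM over all libraries. None of the 7 markers of basal forebrain cholinergic neurons was tested. The 5 sGC libraries numbered 32 to 36 carry numbers that do not follow on from those of their own generation. They are F1 replicates 4 and 5, F2 replicate 6, and F3 replicates 5 and 6, with no control library among them. The tests of the receptor genes and their correlations were also computed without them. So were the calls of the other cholinergic genes within a generation and over the generations. Calls of cell type markers and the nearest genes were not.

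None of the 9 receptor genes passed the test of sGC against control animals in F1, F2 or F3. Across all genes, 2.08% passed the test in F1, 0% in F2 and 5.04% in F3. Leaving out 1 library moved these shares to between 0.49% (without F1 sGC replicate 5) and 3% in F1, and to between 2.54% (without F3 sGC replicate 5) and 5.63% in F3. At an unadjusted p under 0.05, 2 of the 9 receptor genes passed in F1 (CHRM4 and CHRNA7) against 19.6% of all genes, 0 in F2 against 6.64%, and 1 in F3 (CHRNA5) against 21.1%. No receptor gene had sGC and control libraries that did not overlap, where 4.41% of all genes had such groups in F1, 0.403% in F2 and 2.71% in F3. By sign alone, 6 of the 9 estimates were below 0 in F1, 3 in F2 and 8 in F3, where 51.7%, 50.3% and 48.3% of all genes were below 0. The median log2 fold change of the 9 genes was -0.02 in F1, 0.00 in F2 and -0.08 in F3, and that of all genes lay within 0.01 of 0 in each generation. For F3 this sign count is not independent evidence, since the study displayed CHRM2, CHRM4, CHRNA2, CHRNA5 and CHRNA6 among genes lower in these same animals. DESeq2, the likelihood ratio test and the other settings tried also called 0 receptor genes in each generation.

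**Figure D1:**
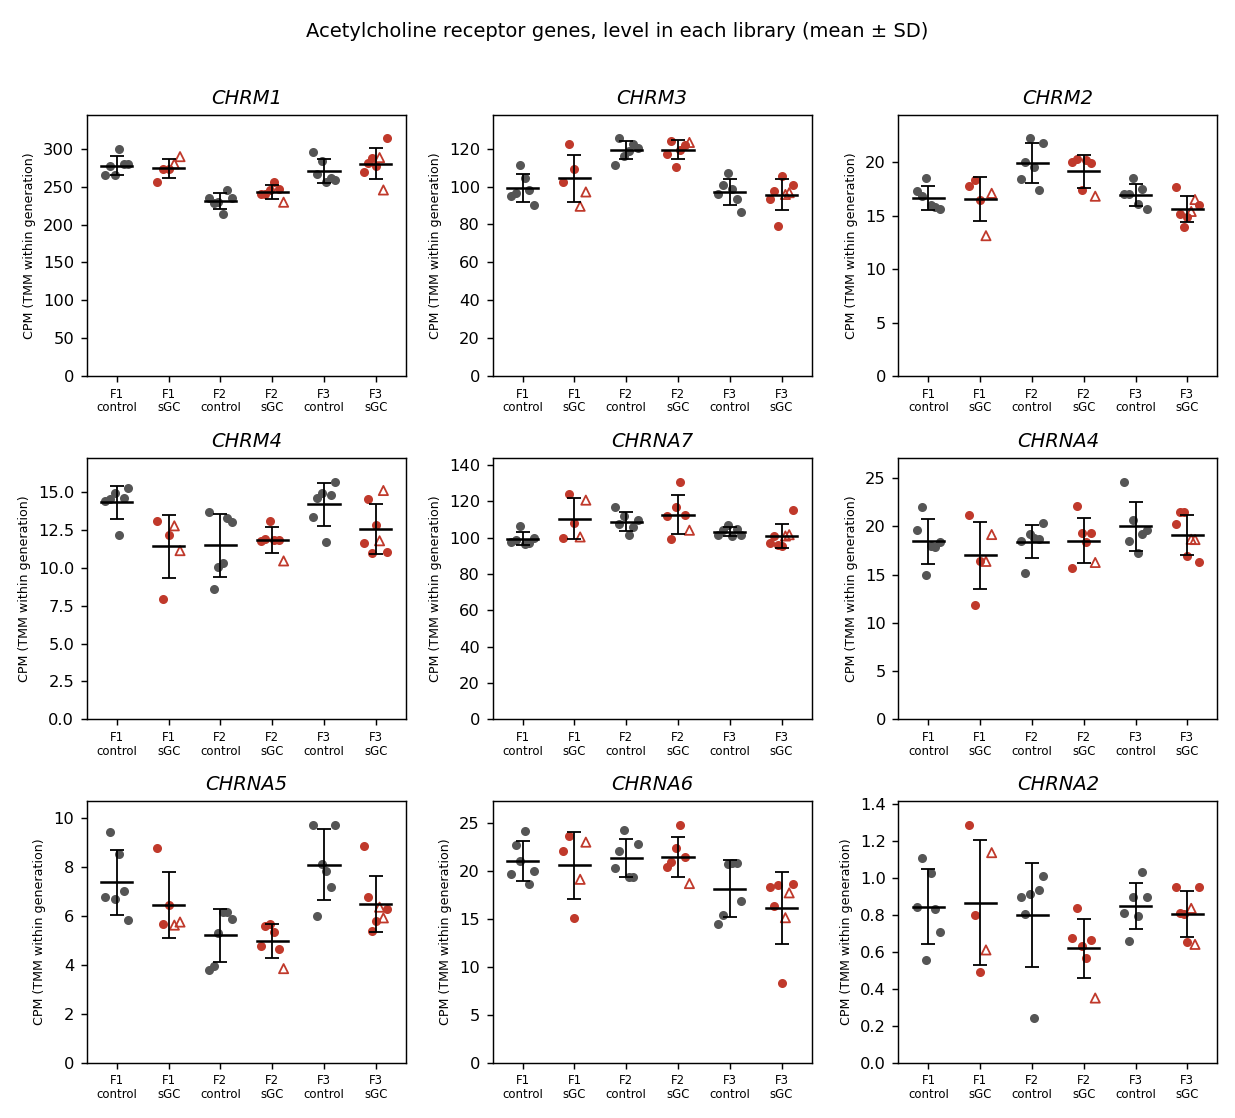
Level of each receptor gene in each library, in CPM (vertical axis, from 0), for the control (grey) and sGC (red) groups of F1, F2 and F3; each symbol is 1 library, open triangles are libraries 32 to 36, and bars are the mean ± SD. The sGC and control symbols of one generation overlap in all 9 panels, and CHRM1, CHRM4 and CHRNA5 lie lower, and CHRM2 and CHRM3 higher, in F2 controls than in F1 and F3 controls.

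CHRM1 encodes the M1 receptor, the muscarinic receptor that pyramidal and granule neurons carry most of. In F1, CHRM1 ran from 265 to 300.2 CPM in control libraries (median 278), and the sGC libraries held 256, 273, 273, 280.1 and 290 CPM. In F2 it ran from 213 to 245 CPM in controls (median 233) and from 229 to 256 CPM in sGC animals (median 243). In F3 the range was 256 to 296 CPM in controls (median 264) and 246 to 314 CPM in sGC animals (median 282). The groups overlapped in each generation, with 3 of 6 F2 sGC libraries above the highest F2 control. The log2 fold change of sGC against control was -0.02 in F1 (95% interval -0.11 to 0.08), 0.07 in F2 (0.00 to 0.15) and 0.05 in F3 (-0.05 to 0.16), with adjusted p of 0.858, 0.749 and 0.593. These intervals were narrow: the fitted ratio of sGC to control lay between 0.924 and 1.06 in F1, 0.998 and 1.11 in F2, and 0.964 and 1.11 in F3.

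CHRM3 encodes the M3 receptor, which shares the Gq pathway with M1. F1 control libraries held 90.4 to 111 CPM of CHRM3 (median 97.3), and the F1 sGC libraries held 89.6, 97.1, 102.5, 109 and 123 CPM. F2 controls ran from 112 to 125.4 CPM (median 119.5) and F2 sGC animals from 110.3 to 124 CPM (median 121). F3 controls ran from 86.6 to 107 CPM (median 97.4) and F3 sGC animals from 79.3 to 106 CPM (median 96.8). The groups overlapped in each generation, with 1 F1 sGC library above the highest control and 1 below the lowest, and with 1 sGC library below the lowest control in F2 and in F3. The log2 fold changes were 0.07 (SE 0.07) in F1, 0.00 (SE 0.04) in F2 and -0.02 (SE 0.06) in F3, and the smallest adjusted p was 0.62, in F1.

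CHRM2 encodes the M2 receptor, which in the hippocampus is known from interneurons and from cholinergic terminals, where it restrains acetylcholine release. In F1, CHRM2 ran from 15.6 to 18.6 CPM in controls (median 16.4), and the sGC libraries held 13.1, 16.4, 17.1, 17.8 and 18.4 CPM. In F2 it ran from 17.4 to 22.2 CPM in controls (median 19.8) and from 16.8 to 20.3 CPM in sGC animals (median 20.004). In F3 controls it ran from 15.6 to 18.5 CPM (median 17.006), and in F3 sGC animals from 13.9 to 17.6 CPM (median 15.4). In F3, 4 of 7 sGC libraries lay below the lowest control, and the others lay within the control range. The log2 fold changes were -0.01 (SE 0.08) in F1, -0.06 (SE 0.07) in F2 and -0.12 (SE 0.06) in F3, with adjusted p of 0.968, 0.881 and 0.282.

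CHRM4 encodes the M4 receptor, which like M2 couples to Gi/o. F1 control libraries held 12.2 to 15.3 CPM of CHRM4 (median 14.6), and the F1 sGC libraries held 7.95, 11.2, 12.2, 12.8 and 13.1 CPM. All 5 sGC libraries were below the control mean of 14.3 ± 1.09 CPM (SD, n = 6), and 3 were below the lowest control. The log2 fold change in F1 was -0.33 (SE 0.11, 95% interval -0.57 to -0.09), and with an adjusted p of 0.125 by edgeR's quasi-likelihood test it did not pass. Without F1 sGC replicate 2, the library at 7.95 CPM, it was -0.22, the estimate nearest 0 among those that left out 1 F1 library.

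In F2, CHRM4 ran from 8.61 to 13.7 CPM in controls (median 11.7) and from 10.47 to 13.1 CPM in sGC animals (median 11.9), and all sGC libraries lay within the control range. In F3 it ran from 11.7 to 15.7 CPM in controls (median 14.7) and from 11.01 to 15.1 CPM in sGC animals (median 11.8), with 3 of 7 sGC libraries below the lowest control. The log2 fold changes were 0.05 (SE 0.10) in F2 and -0.17 (SE 0.09) in F3, with adjusted p of 0.941 and 0.291. The test of the difference between the F2 and F1 effects gave 0.37 (SE 0.15) on the log2 scale with an adjusted p of 0.212, so a difference between these generations was not shown.

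CHRNA7 encodes the alpha7 subunit, which forms homomeric channels with high calcium permeability and is one of the main nicotinic subunits of the hippocampus. In F1, CHRNA7 ran from 96.6 to 106 CPM in controls (median 98.1), and the sGC libraries held 100.05, 100.4, 108, 121 and 124 CPM. All 5 sGC libraries were above the control mean of 99.4 ± 3.55 CPM (SD, n = 6), and 3 were above the highest control. The log2 fold change was 0.16 (SE 0.06, 95% interval 0.03 to 0.28), with an adjusted p of 0.162 by edgeR's quasi-likelihood test.

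In F2, CHRNA7 ran from 101.8 to 117 CPM in controls (median 108) and from 99.4 to 131 CPM in sGC animals (median 113). In F3 it ran from 101 to 107 CPM in controls (median 103) and from 95.6 to 115 CPM in sGC animals (median 101). In F3, 5 of 7 sGC libraries were below the lowest control and 1 was above the highest. The log2 fold changes were 0.05 (SE 0.05) in F2 and -0.03 (SE 0.04) in F3, with adjusted p of 0.868 and 0.694. The difference between the F3 and F1 effects was -0.20 (SE 0.08) with an adjusted p of 0.267.

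CHRNA4 encodes the alpha4 subunit, which pairs with the beta2 subunit in the high affinity nicotinic receptor of the brain, and CHRNA5 encodes an accessory subunit that joins such receptors. For CHRNA4, F1 controls ran from 14.9 to 22.03 CPM (median 18.2), and the F1 sGC libraries held 11.8, 16.4, 16.4, 19.2 and 21.2 CPM. F2 controls ran from 15.1 to 20.4 CPM (median 18.7) and F2 sGC animals from 15.6 to 22.1 CPM (median 18.8). F3 controls ran from 17.3 to 24.6 CPM (median 19.5) and F3 sGC animals from 16.3 to 21.5 CPM (median 18.7). The control and sGC ranges overlapped over most of their width. The log2 fold changes of CHRNA4 were -0.13 (SE 0.13), 0.00 (SE 0.08) and -0.06 (SE 0.08) in F1, F2 and F3, and the smallest adjusted p was 0.618, in F1.

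CHRNA5 had fewer reads, at least 55 per library. In F1, CHRNA5 ran from 5.82 to 9.4 CPM in controls (median 6.89), and the sGC libraries held 5.62, 5.66, 5.74, 6.45 and 8.75 CPM. In F2 it ran from 3.8 to 6.17 CPM in controls (median 5.58) and from 3.84 to 5.66 CPM in sGC animals (median 5.06). In F3 it ran from 6.003 to 9.71 CPM in controls (median 7.97) and from 5.37 to 8.86 CPM in sGC animals (median 6.27). In F3, 6 of 7 sGC libraries were below the control mean and 3 were below the lowest control. The log2 fold change in F3 was -0.32 (SE 0.12, 95% interval -0.58 to -0.06), with an adjusted p of 0.143, and without F3 sGC replicate 1, the library at 8.86 CPM, the adjusted p was 0.0536. In F1 and F2 the log2 fold changes were -0.19 (SE 0.15) and -0.06 (SE 0.14), with adjusted p of 0.483 and 0.942.

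CHRNA6 encodes the alpha6 subunit, known chiefly from catecholamine neurons. F1 controls held 18.7 to 24.2 CPM of CHRNA6 (median 20.5), and the F1 sGC libraries held 15.1, 19.2, 22.1, 23.03 and 23.6 CPM. F2 controls ran from 19.4 to 24.3 CPM (median 21.2) and F2 sGC animals from 18.7 to 24.8 CPM (median 21.2). F3 controls ran from 14.4 to 20.9 CPM (median 18.8) and F3 sGC animals from 8.28 to 18.7 CPM (median 17.7). The library at 8.28 CPM, F3 sGC replicate 4, lay apart from the other 6 sGC libraries, which held 15.1 CPM or more. The log2 fold change of CHRNA6 in F3 was -0.17 (SE 0.15, adjusted p = 0.54), and -0.06 without that library. In F1 and F2 it was -0.03 (SE 0.11) and 0.00 (SE 0.07).

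CHRNA2 encodes the alpha2 subunit, which in the hippocampus is known from oriens-lacunosum moleculare interneurons. It had the fewest reads of the 9 genes, between 4 and 22 per library. F1 controls held 0.555 to 1.11 CPM of CHRNA2 (median 0.835), and the F1 sGC libraries held 0.492, 0.609, 0.801, 1.14 and 1.28 CPM. F2 controls ran from 0.241 to 1.01 CPM (median 0.905) and F2 sGC animals from 0.349 to 0.834 CPM (median 0.647). F3 controls ran from 0.66 to 1.03 CPM (median 0.852) and F3 sGC animals from 0.639 to 0.95 CPM (median 0.811). The groups overlapped in each generation. The log2 fold changes were 0.02 (SE 0.27), -0.34 (SE 0.28) and -0.08 (SE 0.17) in F1, F2 and F3. In F2 the interval of the sGC to control ratio ran from 0.523 to 1.19.

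**Figure D2:**
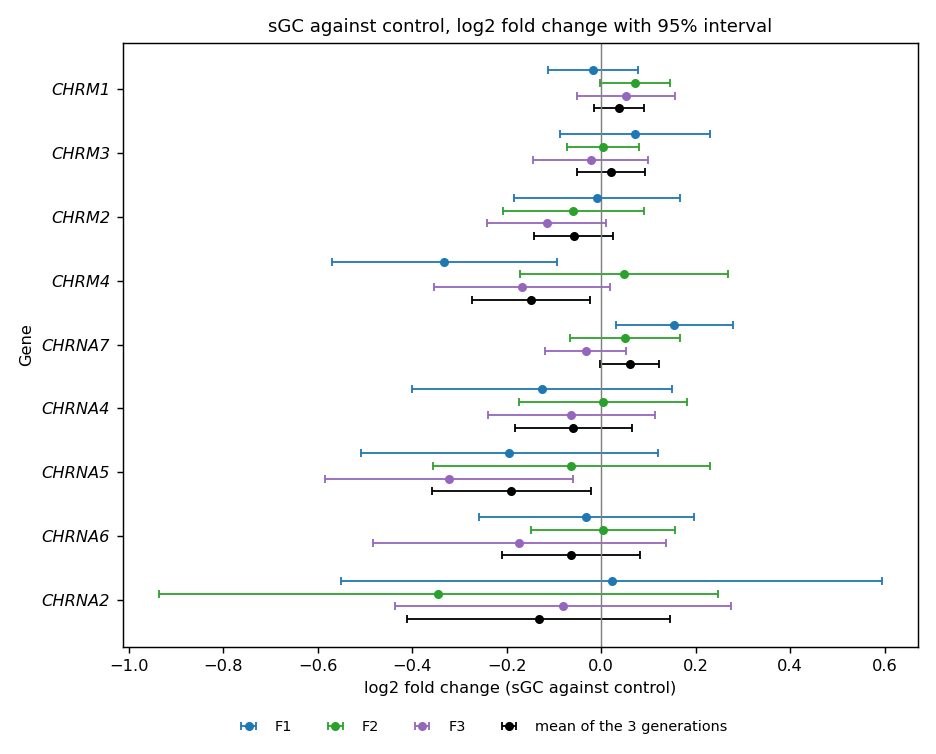
Log2 fold change of sGC against control for the 9 receptor genes (horizontal axis; points, with 95% intervals as bars) in F1 (blue), F2 (green), F3 (purple) and as the mean of the 3 generations (black). In the single generations the interval leaves out 0 for CHRM4 (-0.33) and CHRNA7 (0.16) in F1 and CHRNA5 (-0.32) in F3, none of which passed after adjustment, and CHRNA2 has the widest intervals.

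When all 36 libraries were fitted together, the sGC effect averaged over F1, F2 and F3 passed for 0 of the 9 receptor genes, against 8.53% of all genes, and at an unadjusted p under 0.05 it passed for 2, CHRM4 and CHRNA5, against 24.6%. CHRM4 had a mean log2 fold change of -0.15 (SE 0.06, adjusted p = 0.126), with sGC below the control mean in 5 of 5, 1 of 6 and 5 of 7 libraries in F1, F2 and F3. CHRNA5 had -0.19 (SE 0.08, adjusted p = 0.144), with 4 of 5, 3 of 6 and 6 of 7 libraries below. For CHRM1, CHRM3 and CHRNA7 the mean was 0.04, 0.02 and 0.06, and for CHRM2, CHRNA2, CHRNA4 and CHRNA6 it was -0.06, -0.13, -0.06 and -0.06, with adjusted p between 0.228 and 0.768. The test of a difference in the sGC effect between generations passed for none of the 9 genes, in any of the 3 pairs of generations. This does not show that the effects were equal. Of all genes, 0.29% passed for F2 against F1 and 0% for F3 against F1 and F3 against F2. Leaving out 1 library moved the share for F2 against F1 to between 0% (without F2 control replicate 2) and 1.92% (without F2 sGC replicate 6), and that for F3 against F1 to 3.98% without F1 sGC replicate 4. At an unadjusted p under 0.05, CHRM4 passed for F2 against F1, as did 16.8% of all genes, and CHRNA7 for F3 against F1, as did 13.1%. These contrasts share libraries with the comparisons within a generation.

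Control animals alone were compared to see how stable the level of each receptor gene was over the generations. In F2 against F1 controls, 5 of the 9 genes differed, 3 lower and 2 higher, where 44.9% of all genes differed, 22.4% lower and 22.5% higher. CHRM1 was lower (log2 fold change -0.31, SE 0.04, adjusted p = 3.95e-07), as were CHRM4 (-0.37, SE 0.11, adjusted p = 0.00414) and CHRNA5 (-0.55, SE 0.14, adjusted p = 0.00192). CHRM2 was higher (0.21, SE 0.07, adjusted p = 0.0147), as was CHRM3 (0.22, SE 0.06, adjusted p = 0.00359). In F3 against F2 controls the same 5 genes differed in the opposite direction, against 38% of all genes (19% lower, 19% higher), and in F3 against F1 controls 0 of the 9 differed, against 0.0176%. CHRNA7, CHRNA4, CHRNA6 and CHRNA2 passed in none of these comparisons. The order of the control groups was thus F2 below F1 and F3 for CHRM1, CHRM4 and CHRNA5, and F2 above both for CHRM2 and CHRM3, while F1 and F3 did not differ beyond their spread.

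The F2 count table differed from the others far beyond the receptors. In control means, 438 genes (3.85%) differed by more than 2-fold between F2 and F1, 167 of them by more than 4-fold, whereas 2 genes differed by more than 2-fold between F3 and F1. CHRNE, the epsilon subunit of the muscle receptor, held 10.46 to 13.6 CPM in F1 controls, 87.2 to 100.04 CPM in F2 controls and 10.7 to 12.9 CPM in F3 controls. How reads were counted, the libraries and the animals of F2 cannot be told apart as sources of these differences, so levels of the receptor genes in F2 are best read within F2. The fits within F2 compare libraries of that table alone.

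**Figure D3:**
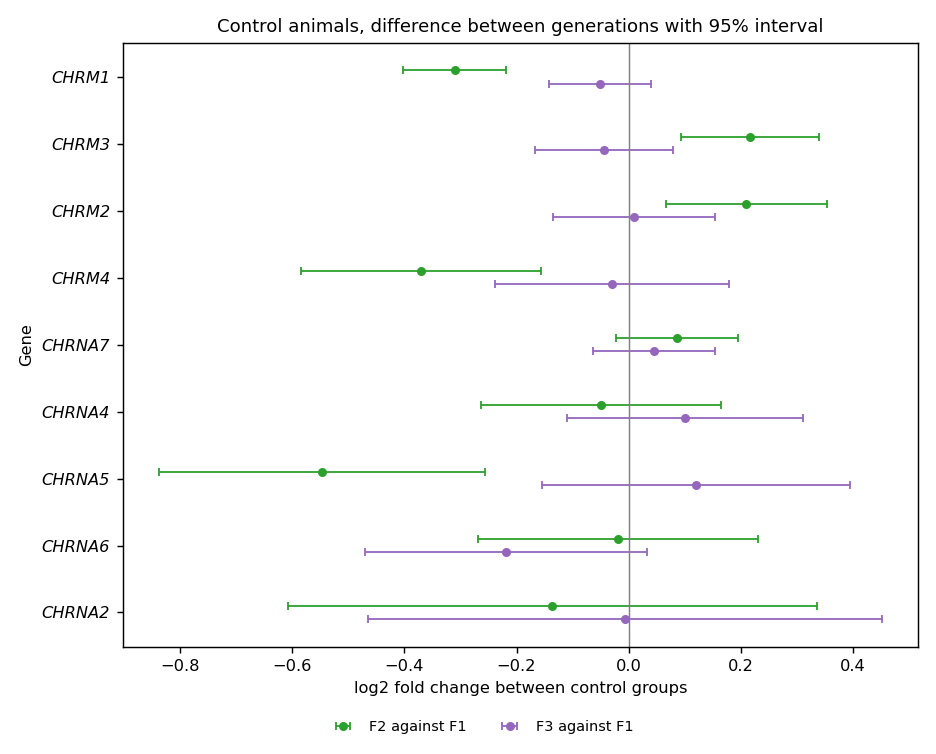
Log2 fold change between control groups for the 9 receptor genes (horizontal axis; points, with 95% intervals as bars), F2 against F1 in green and F3 against F1 in purple. The F2 points of CHRM1 (-0.31), CHRM4 (-0.37) and CHRNA5 (-0.55) lie below 0 and those of CHRM2 (0.21) and CHRM3 (0.22) above it, whereas each F3 interval includes 0.

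The other genes of cholinergic signalling were taken from lists chosen, like the members, with earlier results of these data known. Their calls are therefore not independent of those results. Of all genes, 2.08% passed in F1, 0% in F2 and 5.04% in F3. Of 11 further receptor genes, 7 were tested (CHRM5, CHRNA1, CHRNA3, CHRNB1, CHRNB4, CHRNE and CHRNG), and none passed in F1 or F2. In F3, CHRNE was higher in sGC animals, with 13.02 to 14.9 CPM against 10.7 to 12.9 CPM in controls (log2 fold change 0.22, SE 0.06, adjusted p = 0.0379). That call held in 4 of the 13 fits that left out 1 library (adjusted p up to 0.0814, without F3 sGC replicate 5) and was lost without libraries 32 to 36 (0.133). The smallest adjusted p in F1 was that of CHRNA1 (-0.73, SE 0.31, adjusted p = 0.211), which had 8 to 41 reads per F1 library, and in F2 that of CHRNA3 (0.13, SE 0.05, adjusted p = 0.711). Over the generations, CHRNB1 (0.08, SE 0.02, adjusted p = 0.018) and CHRNE (0.12, SE 0.04, adjusted p = 0.0312) were higher, and without libraries 32 to 36 their adjusted p was 0.21 and 0.311.

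For the enzymes and transporters of acetylcholine, 4 of 7 genes were tested. CHAT, which makes acetylcholine, and SLC18A3, which loads it into vesicles, were not analysed here, and SLC5A7, the choline transporter, had too few reads in F1 to be tested. ACHE and BCHE, the cholinesterases, and PRIMA1 and COLQ, which anchor cholinesterase, passed in no generation, and the smallest adjusted p were 0.209 for BCHE in F1 (-0.16, SE 0.07), 0.752 for ACHE in F2 (-0.07, SE 0.03) and 0.366 for ACHE in F3 (-0.06, SE 0.04). Of 10 assembly and accessory genes, 6 were tested and none passed in a single generation, the smallest adjusted p being 0.232 for LY6H in F1, 0.769 for LYPD1 in F2 and 0.0516 for TMEM35A in F3. TMEM35A, whose product NACHO is a chaperone needed for alpha7 receptors to assemble, had a log2 fold change of -0.12 (SE 0.04) in F3, and it was lower over the generations (-0.09, SE 0.02, adjusted p = 0.0195; 0.126 without libraries 32 to 36).

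Downstream of M1 and M3 receptors, 2 of 14 genes were higher in F1 sGC animals, none lower, where 2.08% of all genes passed. GNAQ, the Gq alpha subunit, held 51.5 to 61.9 CPM in controls and 66.2 to 75.8 CPM in sGC animals, groups that did not overlap (log2 fold change 0.32, SE 0.06, adjusted p = 0.0181). KCNQ3, a subunit of the M-type potassium channel that these receptors close, held 98.6 to 126 CPM in controls and 120.4 to 170.5 CPM in sGC animals (0.40, SE 0.08, adjusted p = 0.031). The KCNQ3 call held in 4 of the 11 fits that left out 1 library (adjusted p up to 0.0786, without F1 sGC replicate 5) and was lost without libraries 32 to 36 (0.0975), whereas GNAQ passed in all 11. In F3, PLCB3, a phospholipase C beta, was higher (31.5 to 35.7 CPM in controls and 37.1 to 42.4 CPM in sGC animals, 0.22, SE 0.04, adjusted p = 0.00902), as 1 of 14 genes, where 5.04% of all genes passed. In F2 none of 13 passed. The sGC effect on GNAQ differed between F2 and F1 (-0.35, SE 0.07, adjusted p = 0.027), where 0.29% of all genes passed. Without F2 control replicate 2, 0 genes passed that test, so the GNAQ call was lost there. For F3 against F1 the test of GNAQ did not pass (-0.29, SE 0.07, adjusted p = 0.0724).

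Downstream of M2 and M4 receptors, 1 of 12 genes was higher in F1 sGC animals, where 2.08% of all genes passed. KCNJ6, a subunit of the inwardly rectifying channels that these receptors open, held 107 to 138 CPM in controls and 148 to 219.9 CPM in sGC animals, groups that did not overlap (0.57, SE 0.09, adjusted p = 0.0082). The study already named Kcnj6 as differentially expressed in these same F1 animals, so this call is not independent of it. In F3, where 5.04% of all genes passed, GNAI2, a Gi alpha subunit, was higher (0.13, SE 0.03, adjusted p = 0.0222). KCNJ3, another channel subunit (-0.15, SE 0.03, adjusted p = 0.0124), and RGS7, which speeds the shutting off of Gi/o signals (-0.15, SE 0.04, adjusted p = 0.0275), were lower. KCNJ3 ran from 102.8 to 116 CPM in F3 controls and from 93.9 to 102.1 CPM in F3 sGC animals. The GNAI2 call was lost without F3 sGC replicate 5 (0.055) and without libraries 32 to 36 (0.0635), and the RGS7 call held in 7 of the 13 fits that left out 1 library (up to 0.0641, without F3 control replicate 1) and was lost without libraries 32 to 36 (0.0954). In F2 none of 12 passed, the smallest adjusted p being 0.678 for ADCY5.

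Over the generations, GNAQ (0.11) and KCNQ3 (0.16) were among the genes of the M1 and M3 list that were higher, and of the M2 and M4 list GNAI2 (0.07), KCNJ6 (0.22), ADCY1 (0.16) and ADCY5 (0.08) were higher and RGS7 (-0.09) lower, with adjusted p between 0.0113 and 0.0264. The F1, F2 and F3 estimates were 0.32, -0.02 and 0.03 for GNAQ, and 0.40, 0.01 and 0.07 for KCNQ3. For KCNJ6 they were 0.57, -0.02 and 0.12, so these means came mostly from F1. GNAI2, ADCY1, ADCY5 and RGS7 kept one sign in F1, F2 and F3. Without libraries 32 to 36 the share of all genes that passed this test fell from 8.53% to 0.473%, and of the genes just named GNAQ alone passed (adjusted p = 0.0492).

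**Figure D4:**
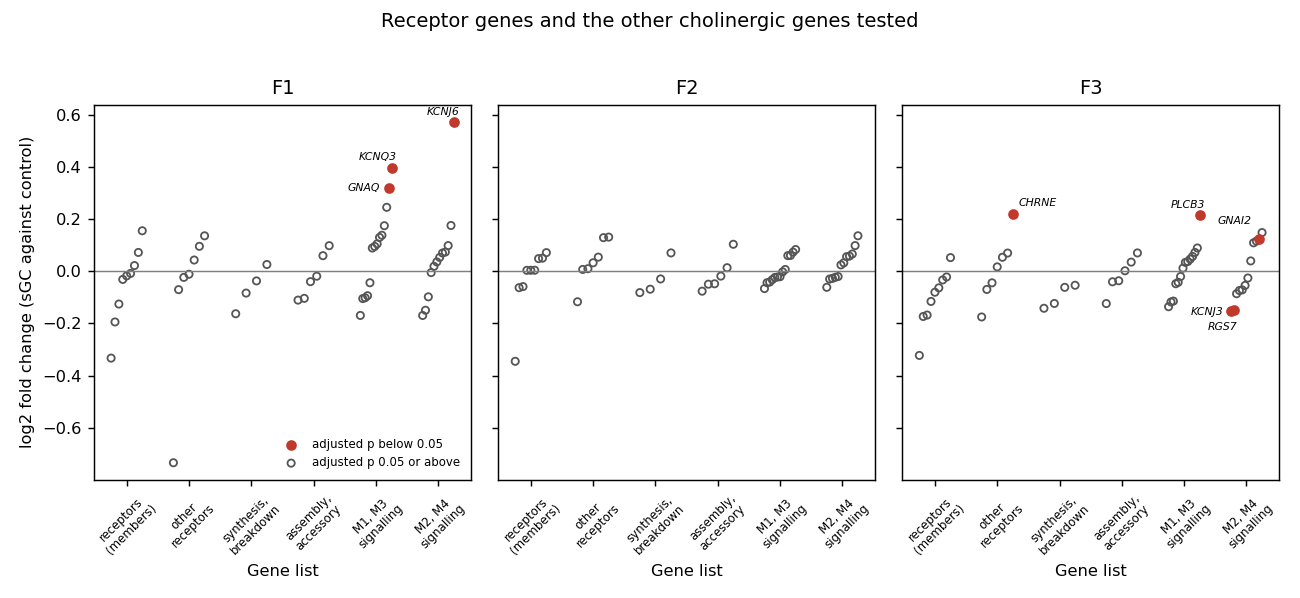
Log2 fold change of sGC against control (vertical axis) for each tested gene of 6 lists (horizontal axis) in F1, F2 and F3; filled red points have an adjusted p below the threshold and are named, open points do not. The receptor members hold no filled point, and the filled points are KCNJ6, KCNQ3 and GNAQ in F1 and CHRNE, PLCB3, GNAI2, KCNJ3 and RGS7 in F3.

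Markers of cell types moved with some of these comparisons. Of 8 interneuron markers, 7 were tested, and all 7 had estimates below 0 in F3, against 48.3% of all genes. GAD1 (-0.24, adjusted p = 0.0183) and GAD2 (-0.20, adjusted p = 0.0116) were lower in F3, where 5.04% of all genes passed. The study already named both as lower in these same F3 animals, so these calls are not independent of it. The summed level of the 7 markers was 650.1 to 733 CPM in F3 controls and 588 to 665 CPM in F3 sGC animals. The F3 estimates of CHRM2 (-0.12) and CHRNA2 (-0.08), genes known from interneurons, were also below 0, but neither passed. That sign was not particular to them: 8 of the 9 receptor genes were below 0 in F3. CHRM4 (-0.17), CHRNA5 (-0.32) and CHRNA6 (-0.17) lay further below 0. In F1, 6 of the 7 interneuron markers were below 0, against 51.7% of all genes, and none passed, while CHRM2 was at -0.01 and CHRNA2 at 0.02. In F2, 4 of the 7 were below 0, against 50.3% of all genes, with CHRM2 at -0.06 and CHRNA2 at -0.34. SST itself had a log2 fold change of -0.05 in F3. All 7 astrocyte markers had estimates above 0 in each generation. In F3, 2 of the 7 were higher (SLC1A2 and S100B), where 5.04% of all genes passed. Over the generations 6 of the 7 were higher, against 8.53% of all genes that passed, with the smallest adjusted p for AQP4 (0.00564), beside the over-generation calls of CHRNB1, CHRNE, TMEM35A and the signalling genes. Without libraries 32 to 36 the share of all genes that passed was 0.473%, and the astrocyte calls were not computed again there. The summed level of the astrocyte markers was 7670 to 8414 CPM in F3 controls and 8649 to 10209 CPM in F3 sGC animals. In F1, astrocyte markers summed to 6945 to 9090 CPM in controls and 8008 to 13122 CPM in sGC animals. Meningeal fibroblast markers summed to 82 to 228 CPM in F1 controls and 54 to 111 CPM in F1 sGC animals. Of these, 2 of 6 were lower in sGC animals, where 2.08% of all genes passed. The part of these cell types in the results was not tested, and in RNA from whole hippocampus fewer cells of a type and less RNA per cell cannot be told apart.

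Animals of one group differed from each other, and the receptor genes were compared for variation in common. Deviations of log2 CPM from the group mean were correlated over the 36 libraries for the 36 pairs of the 9 genes, with permutation of libraries within groups and p-values adjusted over the pairs. CHRNA4 and CHRNA5 rose and fell together among animals (r = 0.53, rho = 0.53, permutation p = 0.00212, adjusted p = 0.0382), and so did CHRNA2 and CHRNA6 (r = 0.43, rho = 0.41, permutation p = 0.00108, adjusted p = 0.0382). For the rank correlation the adjusted p was 0.0659 for CHRNA4 with CHRNA5 and 0.114 for CHRNA2 with CHRNA6. Within F1, F2 and F3 the r of CHRNA4 with CHRNA5 was 0.57, 0.63 and 0.40, and that of CHRNA2 with CHRNA6 was 0.71, 0.43 and 0.56. Leaving out the 2 libraries farthest from the median of the first gene, CHRNA4 or CHRNA2, gave r of 0.48 and 0.45. F3 sGC replicate 4, far below the rest in CHRNA6, was kept, so this check did not cover it. Without libraries 32 to 36 r was 0.56 and 0.42 with an adjusted p of 0.102 for both pairs, so that neither passed. No other pair passed, among them CHRM2 with CHRM3 (r = 0.50, adjusted p = 0.0677) and CHRM3 with CHRNA4 (r = -0.47, adjusted p = 0.12).

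**Figure D5:**
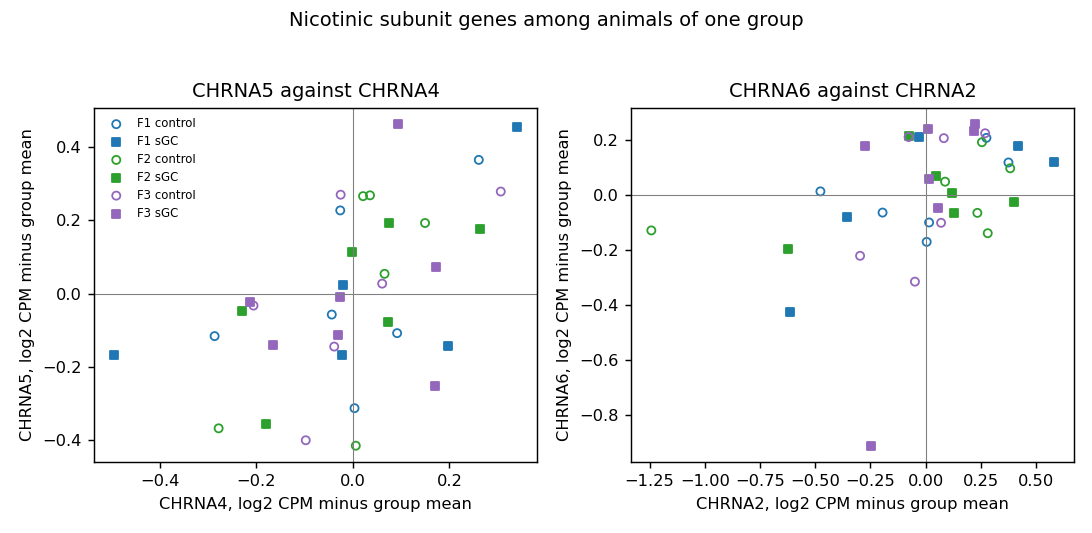
Deviation from the group mean of log2 CPM in each of the 36 libraries, CHRNA5 against CHRNA4 (left, r = 0.53) and CHRNA6 against CHRNA2 (right, r = 0.43); blue, green and purple mark F1, F2 and F3, open circles control and filled squares sGC. Both clouds rise from lower left to upper right with wide scatter, and 1 F3 sGC library lies far below the rest in CHRNA6.

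Among all 11390 genes fitted in common, the genes nearest to 8 of the receptor genes in these deviations are given as a description over 36 libraries, which share depth and dissection. CHRM1 lay nearest to SEMA6B (r = 0.81) and CRTC1 (r = 0.81), CHRM3 to NEDD4L (r = 0.80) and ERC2 (r = 0.79), CHRM2 to CAND1 (r = 0.74) and KCNJ3 (r = 0.74), and CHRM4 to MDK (r = 0.84) and MCHR1 (r = 0.69). CHRNA7 lay nearest to NPTX1 (r = 0.69) and RAB11FIP5 (r = 0.65), CHRNA4 to NAGS (r = 0.81) and NOV (r = 0.79), and CHRNA5 to LPL (r = 0.75) and SERPINI1 (r = 0.73). CHRNA2 lay nearest to KCNJ11 (r = 0.69) and PNPLA3 (r = 0.63). No receptor gene was among the 2 genes nearest to another.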

How the data were processed

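For each generation the authors deposited a table of unnormalized read counts, with genes in rows and libraries in columns, from poly(A) RNA-seq libraries of single animals; TopHat2 and edgeR are among the tools in the submitters' processing notes, and the read counter and its annotation are not given in the sources used here. The authors' own comparison columns (fold changes, p-values) and the methylation tables, which hold only such comparisons, were not used. Groups came from the sample labels. Counts were filtered with filterByExpr, scaled by TMM and tested with edgeR 4.0.16 (limma 3.58.1, R 4.3.3) by the quasi-likelihood test with Benjamini-Hochberg adjustment over all genes, within each generation and, for contrasts between generations, over 36 libraries. Correlations used log2 CPM with a prior count of 2 and 100000 permutations (Python 3.11.15, numpy 2.4.6, pandas 2.3.3, scipy 1.17.1, matplotlib 3.10.9). Alternatives included DESeq2 1.42.0. The fits were tested on simulated counts.

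Members and gene lists were chosen with earlier results of these data known. Named beside the members were list genes that passed, or else the smallest adjusted p, and the 2 genes nearest each member. Results for some genes that these rules name are not reported here. Replicate numbers were not taken to pair animals: of 17 same-numbered pairs, 3 had correlated deviations over 0.1 (range -0.37 to 0.29). Counts of libraries within a group varied beyond counting error. No receptor sequence is printed, because no sequence was used here.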

Additional observations from a re-analysis of the deposited data

Results flagged for a closer look

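Single libraries stood apart from the rest of their group in 8 of the 54 combinations of receptor gene and group, where chance gives about 1 in 20. In controls these were CHRM4 at 12.2 CPM in F1 replicate 4 (low), CHRNA7 at 106.2 CPM in F1 replicate 3 (high), CHRNA2 at 0.241 CPM in F2 replicate 4 (low) and CHRNA4 at 15.1 CPM in F2 replicate 2 (low). In sGC animals they were CHRNA5 at 8.75 CPM in F1 replicate 1 (high) and at 8.86 CPM in F3 replicate 1 (high), CHRNA6 at 8.28 CPM in F3 replicate 4 (low) and CHRNA7 at 115.2 CPM in F3 replicate 7 (high). No cause was tested.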

How the results depend on the processing

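No setting called a receptor gene in a comparison of sGC with control. Of the counts of receptor genes that passed or pairs that varied together, 349 stayed within 1.5 times the main count, and 1 moved: without libraries 32 to 36, 0 pairs varied together in place of 2, a fit that also has fewer libraries. The 5 receptor genes that differed between F2 and F1 controls did so under all settings but 1, where CHRM2 was lost without F2 control replicate 3, and in F3 against F2 controls CHRM2 was lost without F2 control replicate 3 or 6 or F3 control replicate 4 or 6. Estimates near 0 changed sign. CHRM2 in F1 was 0.072 and CHRM3 in F2 was -0.0055 without libraries 32 to 36. Leaving out single libraries, the F1 estimates ran from -0.049 to 0.064 for CHRM2, -0.17 to 0.18 for CHRNA2, -0.033 to 0.0096 for CHRM1 and -0.088 to 0.065 for CHRNA6; the F2 estimates from -0.013 to 0.027 for CHRM3, -0.043 to 0.046 for CHRNA6, -0.021 to 0.10 for CHRM4 and -0.054 to 0.049 for CHRNA4; the F3 estimates from -0.10 to 0.0045 for CHRNA4 and -0.053 to 0.018 for CHRM3; and the mean effect of CHRM3 from -0.00090 to 0.037. The cause was not tested.

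Deviations gave little sign that the same replicate number marked paired animals (1 of 17 pairs was its own best match). This check cannot exclude pairing, since paired animals need not have correlated deviations. With the replicate number as a block, 0 receptor genes passed, the CHRNA2 estimate in F1 was -0.024, and the calls of GNAQ in F1 (adjusted p = 0.0762) and KCNJ3 in F3 (0.0546), among others, were lost; the share of all genes called fell from 2.08% to 0.598% in F1 and from 5.04% to 1.51% in F3. The block could not be fitted to control groups of different generations. Without libraries 32 to 36, 97 genes were called in place of 237 in F1, 317 in place of 573 in F3 and 54 in place of 971 for the mean effect. In F1 the likelihood ratio test called 598 genes and DESeq2 658, and DESeq2 called 944 in F3. Fitting all 36 libraries together called 852 genes in F1, 0 in F2 and 334 in F3. In F2 the likelihood ratio test called 6 genes and DESeq2 12, in place of 0. For F2 against F1 the likelihood ratio test called 168 genes, DESeq2 270, no filter 66, the block 4 and the fit without libraries 32 to 36 68, in place of 33. For F3 against F1 they called 58, 67, 0, 0 and 431 in place of 0. PLCB3 in F3 did not pass when all 36 libraries were fitted together. Single libraries moved counts over all genes by more than 1.5 times. In F1 the count of 237 fell to between 56 (without sGC replicate 5) and 155 without any 1 library other than sGC replicates 1 and 4, in F2 it was 1 without sGC replicate 5, and in F3 it was 288 without sGC replicate 5. The count for the mean effect was 539 without F1 sGC replicate 4 and 630 without F2 sGC replicate 6. The count for F2 against F1 ran from 0 (without F2 control replicate 2) to 219 (without F2 sGC replicate 6), and that for F3 against F1 was 454 without F1 sGC replicate 4, 61 without F3 control replicate 6 and at most 21 without any other. CHRNA2 rested on 4 to 22 reads per library, and CHRNA1 on 8 to 41 in F1.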
